A study of Mus musculus with 6 samples.

Results

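The 9 genes described here carry the steroid-making programme of Leydig cells, the interstitial cells of the testis that produce androgens: Lhcgr, Nr5a1, Star, Cyp11a1, Hsd3b1, Hsd3b6, Cyp17a1, Hsd17b3 and Insl3. They were chosen by name, as 9 of the 21883 protein-coding genes on chromosomes 1 to 19, X and Y. For each gene, every ATAC-seq peak was taken that touched a window from 10 kb before its 5′ end to 10 kb past its 3′ end, and a peak within 3 kb of the 5′ end was called a promoter peak. ATAC-seq marks open chromatin by the cuts that the Tn5 transposase makes in it. The 6 libraries came from testes of mice on 1 shared inbred background, per the study's methods, at postnatal day (Pnd) 5. There were 3 libraries of Sirt7-/- mice (S7KO), which lack the deacetylase SIRT7 in all cells, and 3 of wild-type mice (WT), numbered 1, 2 and 4 in each genotype. All 6 had been enriched in spermatogonia, the mitotic germ cells, so Leydig cells were not the cells the libraries were made for. Per the study, the fluid holding interstitial cells was taken off the testis cords before the cords were digested, plating then depleted somatic cells, and most of the remaining cells carried the spermatogonial marker PLZF. The comparison asked whether loss of SIRT7 changed which chromatin was open.

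In Leydig cells, luteinizing hormone binds the receptor LHCGR and raises cyclic AMP, and STAR then carries cholesterol into the mitochondrion. CYP11A1 cleaves the cholesterol side chain, the HSD3B enzymes and CYP17A1 turn the product into androgens, and HSD17B3 makes testosterone. NR5A1 is the nuclear receptor that activates most of these genes, and it is also present in Sertoli cells and the adrenal gland. INSL3 is the Leydig hormone that drives descent of the testis.

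The promoters of 4 of the genes are shown because they span the range of what was found, from a peak over the 5′ end in every library (Lhcgr, Cyp11a1) to none at the 5′ end in any (Hsd3b1, Hsd3b6). Each is the run of 250 bases just before the start listed by RefSeq (GRCm38.p6), read 5′ to 3′ on the strand of the gene, with every CG dinucleotide in capitals.
Lhcgr, chr17:88792015-88792264, minus strand: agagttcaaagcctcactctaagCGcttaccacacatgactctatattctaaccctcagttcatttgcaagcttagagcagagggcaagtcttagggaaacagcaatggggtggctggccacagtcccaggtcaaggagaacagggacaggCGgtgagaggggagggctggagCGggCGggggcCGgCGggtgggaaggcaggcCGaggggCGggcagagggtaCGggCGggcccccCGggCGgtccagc
Cyp11a1, chr9:57997774-57998023, plus strand: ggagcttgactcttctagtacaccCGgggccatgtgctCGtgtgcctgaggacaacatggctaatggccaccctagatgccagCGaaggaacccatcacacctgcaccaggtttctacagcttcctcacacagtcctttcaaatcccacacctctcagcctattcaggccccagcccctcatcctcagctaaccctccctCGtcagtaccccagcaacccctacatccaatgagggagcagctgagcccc
Hsd3b1, chr3:98859795-98860044, minus strand: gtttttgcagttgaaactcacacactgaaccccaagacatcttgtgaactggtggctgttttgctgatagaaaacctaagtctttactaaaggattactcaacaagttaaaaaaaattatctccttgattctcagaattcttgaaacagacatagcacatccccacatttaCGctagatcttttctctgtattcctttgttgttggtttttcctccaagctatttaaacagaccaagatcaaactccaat
Hsd3b6, chr3:98814444-98814693, minus strand: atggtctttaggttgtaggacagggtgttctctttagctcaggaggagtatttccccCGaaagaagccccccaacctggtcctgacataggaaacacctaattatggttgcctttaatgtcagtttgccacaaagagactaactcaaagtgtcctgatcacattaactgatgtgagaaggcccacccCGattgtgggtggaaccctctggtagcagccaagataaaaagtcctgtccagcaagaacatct
Lhcgr held 12 CG dinucleotides in this stretch, Cyp11a1 held 4, Hsd3b6 held 2 and Hsd3b1 held 1.

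The lists held 119786, 127985 and 133299 peaks in S7KO replicates 1, 2 and 4, and 118881, 105728 and 133663 in WT replicates 1, 2 and 4. Depth is not stated in the lists. The background coverage recovered from them was 4.72, 5.15 and 6.03 in S7KO and 4.74, 2.92 and 6.0 in WT, so WT replicate 2 was the shallowest library and had the fewest peaks. A peak lay in the promoter of Sirt7 itself in all 6 libraries, ranked between 5.62% and 17.8% from the top of its list, which does not test the deletion. The labelled cell type was set beside marker genes of the testis. Promoter peaks were present in all 6 libraries at 16 of 16 spermatogonial and germ cell genes, at 10 of 12 Sertoli cell genes, at 6 of 6 peritubular myoid genes, at 4 of 6 endothelial genes and at 2 of 6 macrophage genes, beside 74.0% of all protein-coding genes. Rhox5 of the Sertoli cell genes and Adgre1, Ptprc, Cx3cr1 and Lyz2 of the macrophage genes had none in any library. The median rank of promoter peaks within their lists was 8.05% from the top over all genes. It was 15.3% for the germ cell genes, 15.0% for the Sertoli cell genes and 16.3% for the myoid genes. For the 4 endothelial and 2 macrophage genes with such a peak in all 6 libraries it was 20.5% and 36.1%. These ranks did not separate germ cells from Sertoli or myoid cells. A promoter peak does not show that a gene is transcribed, and fewer cells of a type and less open chromatin per cell cannot be told apart in these libraries.

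A promoter peak was present in all 6 libraries at 7 of the 9 genes. Over the 21436 protein-coding genes whose 5′ end could be placed, the share was 74.0%, and 21.8% had no such peak in any library. The exceptions were the Hsd3b genes. Hsd3b6 had no peak anywhere in its window of 28.9 kb in any library, as did 13.7% of protein-coding genes, and Hsd3b1 had a single peak in a single library. A peak lay over the 5′ end itself in all 6 libraries at 4 of the 9 genes (Lhcgr, Nr5a1, Cyp11a1 and Cyp17a1), against 59.7% of protein-coding genes. It did so in 5 libraries at Star, in 4 at Hsd17b3 and in 0 at Insl3, Hsd3b1 and Hsd3b6.

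**Figure D1:**
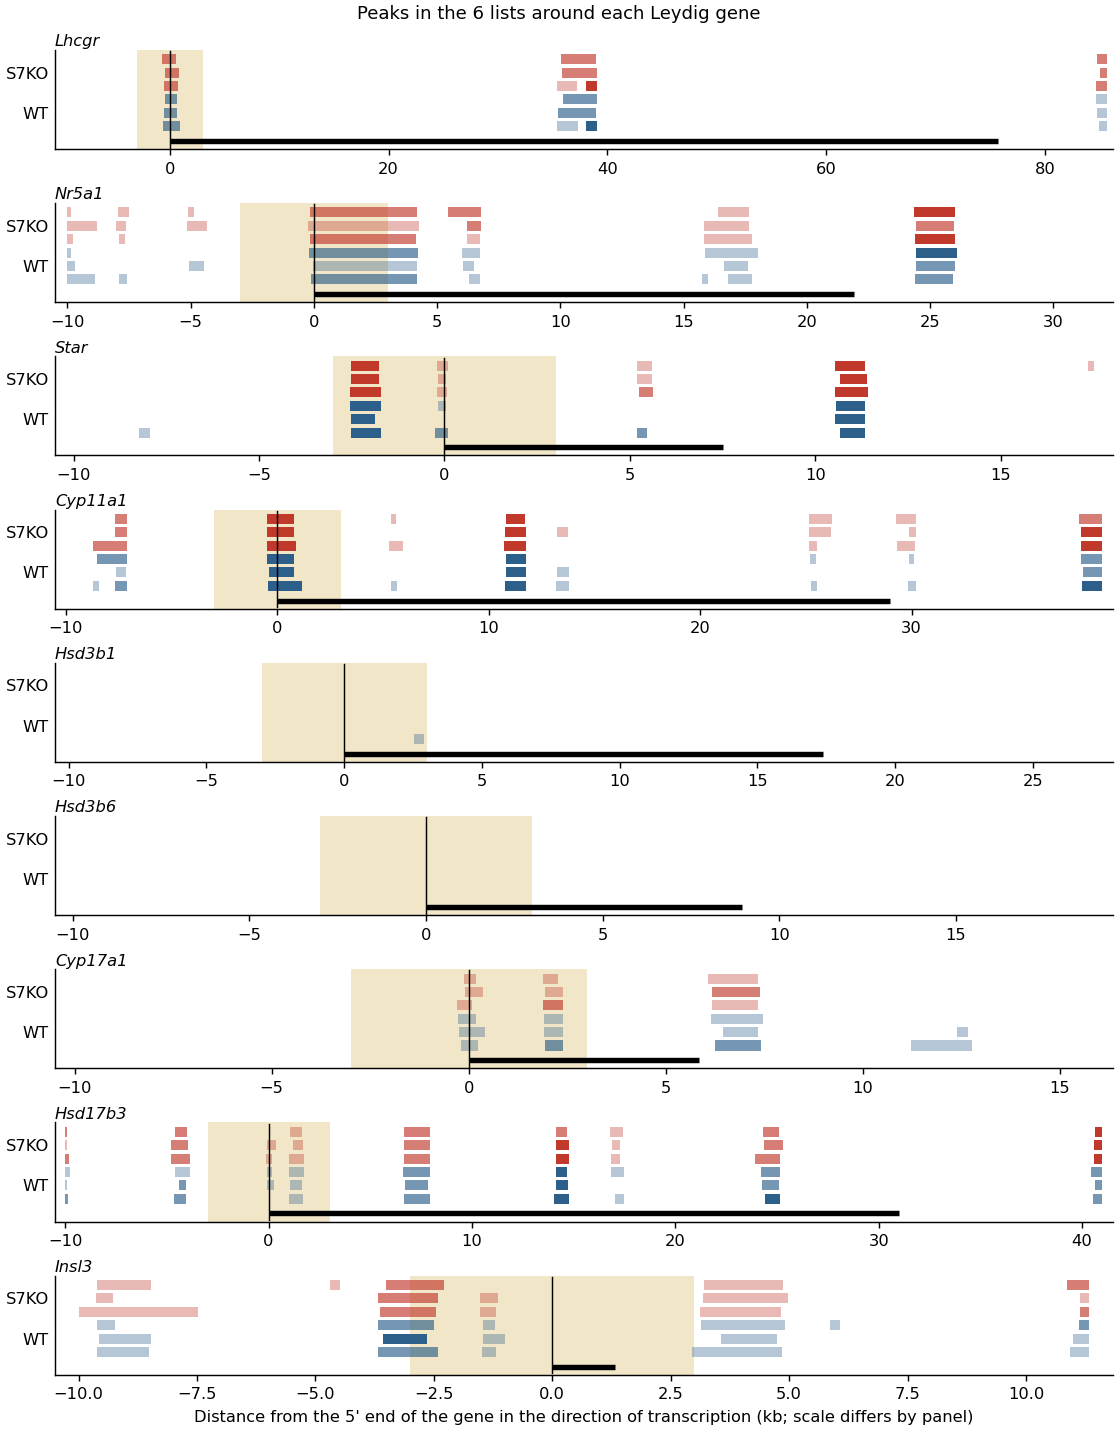
Peaks in the windows of the 9 genes, 1 row per library (from the top S7KO replicates 1, 2 and 4 in red, then WT replicates 1, 2 and 4 in blue), plotted by distance in kb from the 5′ end. The darkest bars rank in the top 25% of their list and the middle shade in the top 50%, the black bar is the gene, and the tinted band is the promoter. Hsd3b6 is empty and Hsd3b1 holds 1 WT peak, whereas the other 7 genes hold peaks in every row.

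The strength of a peak was described by its rank by −log10 q within its own list, given as the percent from the top, so that a small value is a strong peak. Star and Cyp11a1 had median ranks of 2.50% and 3.62%, stronger than the median of 8.05% over the 15863 protein-coding genes with a promoter peak in all 6 libraries. Insl3 (29.1%), Lhcgr (34.0%), Nr5a1 (49.3%), Cyp17a1 (55.9%) and Hsd17b3 (81.4%) were weaker than it, and the median over the 7 genes was 34.0%. In that order each gene's values overlapped those of the next, with 1 exception: every value of Cyp11a1 lay nearer the top than every value of Insl3.

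**Figure D2:**
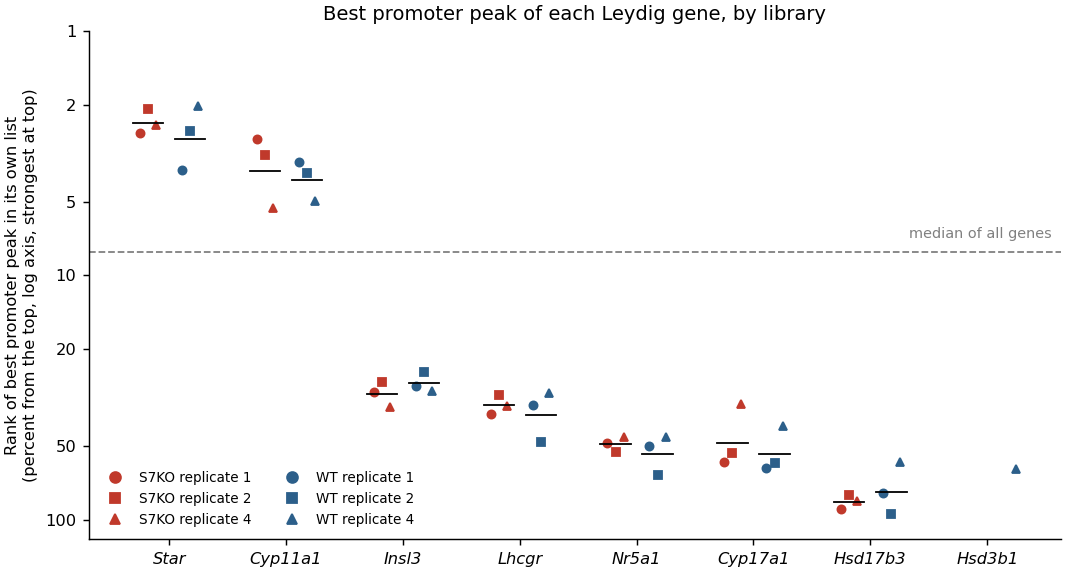
Rank of the best promoter peak of each gene within its own list (percent from the top, log axis, strongest at the top), by library, with black bars at the mean of 3 libraries. Star and Cyp11a1 lie above the dashed line, the median of 8.05% over all genes with a promoter peak in all 6 libraries, and the genotypes overlap at every gene. Hsd3b1 has 1 point and Hsd3b6 has none.

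Lhcgr, the luteinizing hormone receptor, spans 88716384 to 88792059 of chromosome 17 on the minus strand (GRCm38, as all positions here). A peak over its 5′ end, from position -684 to position 890 bp relative to it, had S7KO ranks of 37.0%, 30.9% and 34.3% (replicates 1, 2 and 4, the order used throughout) and WT ranks of 33.8%, 48.2% and 30.2%. The weakest value was that of the shallowest library, and the genotypes overlapped. Deep in the gene body, 35.4 kb to 39.1 kb from the 5′ end, a region was called in all 6 libraries at 16.4% to 46.8%. The promoter sequence shown above holds AGGTCA, the core letters that NR5A1 recognises, starting at position -122 from the start. It was the only 1 of the 6 genes with a RefSeq promoter sequence to hold these letters on either strand, and 12.5% of all promoters of this length held them.

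Nr5a1 spans 38692656 to 38714542 of chromosome 2 on the minus strand. Its promoter peak was the widest of the set, running from the 5′ end about 4 kb into the gene, with widths of 4327, 4533 and 4326 bp in S7KO and 4450, 4247 and 4315 bp in WT. The median width of a peak was 614 to 681 bp across the lists. The wide peak was low, with a fold enrichment (pileup over local background, as the authors' caller gave it) of 2.0 to 2.12 in every library, and it ranked at 48.7%, 53.0% and 45.9% in S7KO and 49.8%, 65.9% and 46.0% in WT. The strongest region in its window lay past the 3′ end, in the neighbouring pseudogene Adgrd2-ps, and ranked at 20.9% to 30.9% in the 6 libraries. The region 7.5 kb to 8.0 kb before the 5′ end was called in all 3 S7KO libraries but, among WT, in replicate 4 alone, with ranks of 75.6% to 99.1%.

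Star spans 25808474 to 25815982 of chromosome 8 on the plus strand. Its strongest peak did not cover the 5′ end. It lay 2.5 kb to 1.7 kb before it (chr8:25805936-25806762), between Star and Lsm1 and within 3 kb of no other listed 5′ end. This peak ranked at 2.62%, 2.09% and 2.43% in S7KO and at 3.70%, 2.57% and 2.03% in WT, with a fold enrichment of 5.78 to 6.87, and it is the value that puts Star first among the 9 genes. A separate, weaker peak covered the 5′ end, at 52.8%, 55.2% and 53.2% in S7KO and at 68.1% and 45.5% in WT replicates 1 and 4. It was not called in WT replicate 2. A region in the gene body, 5.2 kb to 5.6 kb from the 5′ end, was called in all 3 S7KO libraries (57.7%, 54.9% and 49.9%) and, among WT, in replicate 4 alone (48.2%). The libraries that lacked it, WT replicates 1 and 2, had the background coverages of 4.74 and 2.92, and S7KO replicate 1, which had it, that of 4.72. The part of depth in this pattern was not tested. A region at 6.30% to 14.1% about 3 kb past the 3′ end lay within Ash2l. The 3 protein-coding genes whose promoter ranks were most like those of Star over the 6 libraries were Pigo, Fbxo22 and Clasrp, with mean absolute differences of 0.148, 0.177 and 0.192 percentage points.

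Cyp11a1, the side chain cleavage enzyme that catalyses the first step of steroid synthesis, spans 57998024 to 58027031 of chromosome 9 on the plus strand. The peak over its 5′ end ranked at 2.76%, 3.22% and 5.27% in S7KO and at 3.44%, 3.80% and 4.97% in WT, with fold enrichments of 5.46 to 6.19. A region in the gene body (chr9:58008769-58009795) was as strong. It ranked at 4.36%, 3.06% and 2.51% in S7KO and at 4.77%, 4.58% and 1.73% in WT. This region also lay within 3 kb of the 5′ end of Gm17322, a gene that overlaps Cyp11a1. The lists cannot assign it to either. RefSeq lists another start for Cyp11a1 16928 bases from the first, and no library had a peak within 3 kb of that start. Cyp11a1 was the 1 gene of the set whose peak over the 5′ end ranked nearer the top than the median of 8.05%. That median is of the best peak within 3 kb of each gene, which need not cover the 5′ end.

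Hsd3b1 and Hsd3b6 encode isoforms of the dehydrogenase that makes progesterone from pregnenolone. Hsd3b1 spans 98842356 to 98859794 and Hsd3b6 spans 98805504 to 98814443 of chromosome 3, both on the minus strand. The 1 peak of Hsd3b1 was in WT replicate 4, the list with the most peaks. It was 361 bp wide, lay 2537 to 2897 bp inside the gene, and ranked at 62.2% with a fold enrichment of 3.38. A peak in the window in exactly 1 library was found at 0.676% of protein-coding genes. The emptiness went beyond these genes. The 6 Hsd3b genes that lie side by side (Hsd3b4, Hsd3b5, Hsd3b2, Hsd3b3, Hsd3b6 and Hsd3b1) span 361 kb, and that stretch held no other region in any library, or 2.77 regions per Mb against 58.3 across the chromosomes. The extent of the cluster was chosen after the values were seen. The authors kept uniquely mapped reads, and the longest GENCODE transcripts of Hsd3b1 and Hsd3b6 were 84.2% identical over 1525 aligned bases, with a longest identical run of 72 bases. Whether reads were lost to such likeness was not tested.

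Cyp17a1, the hydroxylase and lyase that leads to androgens, spans 46667165 to 46673000 of chromosome 19 on the minus strand. The peak over its 5′ end was weak, at 65.5%, 65.6% and 95.6% in S7KO and 86.9%, 89.2% and 68.8% in WT. Its best promoter peak lay 1.9 kb to 2.4 kb inside the gene, at 58.1%, 53.6% and 33.5% in S7KO and 61.2%, 58.5% and 41.3% in WT. In both genotypes replicate 4, the deepest, had the strongest value. This peak also lay within 3 kb of the 5′ end of Gm41857, a gene that overlaps Cyp17a1, and the lists cannot assign it to either. The region over the 5′ end of Cyp17a1 overlapped Gm41857 too, and it lay within 3 kb of the 5′ end of Gm6967.

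Hsd17b3, which makes testosterone from androstenedione and in the fetal mouse testis is active in Sertoli cells, spans 64058274 to 64089262 of chromosome 13 on the minus strand. Its promoter peaks were the weakest of the 7 genes, at 90.7%, 79.3% and 83.6% in S7KO and 78.0%, 94.5% and 57.9% in WT. The gene body was stronger than the promoter. The regions 14.0 kb to 14.8 kb from the 5′ end (14.3% to 27.0%), 6.6 kb to 8.0 kb (28.0% to 38.5%) and 23.9 kb to 25.3 kb (18.3% to 40.1%) were called in all 6 libraries.

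Insl3 is 1.33 kb long, spans 71689252 to 71690577 of chromosome 8 on the plus strand, and lies within the listed span of Jak3. No library had a peak over its 5′ end. The best promoter peak lay 3.7 kb to 2.3 kb before the 5′ end, inside Jak3, and ranked at 29.9%, 27.2% and 34.6% in S7KO and 28.4%, 24.8% and 29.8% in WT. A nearer one, 1.5 kb to 1.0 kb before the 5′ end, was weak (70.4% to 99.8%) and was not called in S7KO replicate 1. Both lay in sequence that the annotation gives to Jak3, so the lists cannot assign them to either gene.

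The genotypes were first compared by these promoter ranks. None of the 7 genes had non-overlapping values, whereas over all 15863 genes every S7KO library was nearer the top than every WT library at 5.22% and farther from it at 1.24%. The largest difference of means was at Hsd17b3, with 84.5% ± 5.79 (SD, n = 3) in S7KO against 76.8% ± 18.4 (SD, n = 3) in WT. In exact two-sided permutation tests, which reassign the libraries in 20 ways and cannot go below 0.1, p was 0.4 to 0.9 for the 7 genes and 1.0 after Benjamini-Hochberg adjustment over all genes.

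Peaks covered between 29.9 and 37.2 kb of the 9 windows per library. The length covered was 34.9, 35.4 and 37.2 kb in S7KO and 33.5, 29.9 and 36.4 kb in WT, so the genotypes overlapped and WT replicate 2 was lowest. At Cyp11a1 it was 6.10, 5.73 and 6.75 kb in S7KO against 5.08, 4.06 and 5.86 kb in WT. At Star it was 2.43, 2.12 and 2.35 kb against 1.82, 1.47 and 2.41 kb. At both genes WT replicate 4 reached into the S7KO range and WT replicate 2, the shallowest, was lowest. The S7KO mean was above the WT mean at 5 of the 8 genes with a peak. It was so at 75.5% of the 36238 genes of any kind with a peak. The median difference was 0.405 kb over the 8 genes and 0.144 kb over those of any kind, with no allowance for window length.

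**Figure D3:**
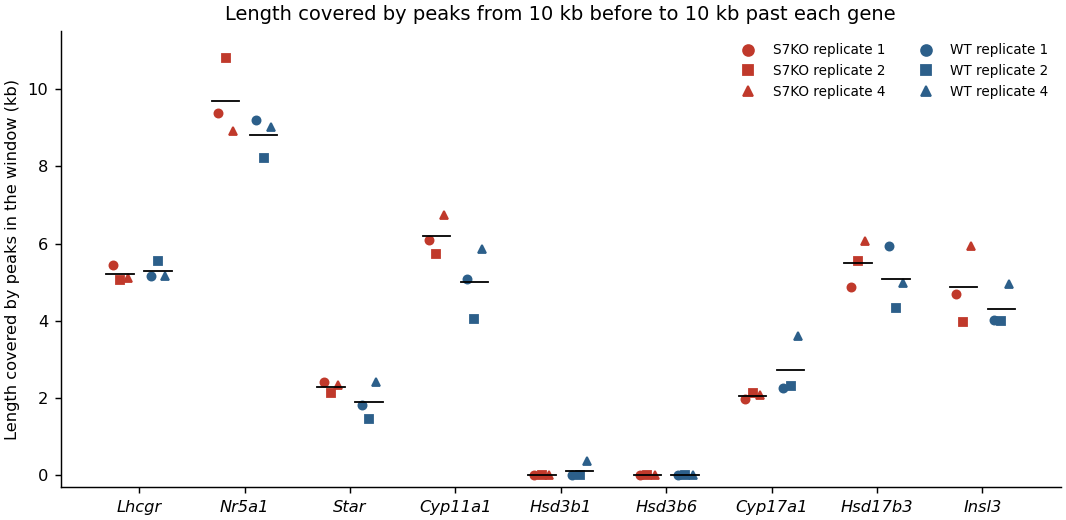
Length covered by peaks (kb) in the window of each gene, from 10 kb before to 10 kb past it, by library, with black bars at the mean of 3 libraries. Cyp17a1 is the gene at which all 3 WT values lie above all 3 S7KO values, and Hsd3b1 and Hsd3b6 are at or near 0.

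Cyp17a1 was the 1 gene whose covered lengths did not overlap, at 1.98, 2.14 and 2.08 kb in S7KO and 2.27, 2.32 and 3.61 kb in WT. Its means were 2.07 kb ± 0.0810 (SD, n = 3) and 2.73 kb ± 0.762 (SD, n = 3). With these windows and thresholds no gene of the set lay above WT in all S7KO libraries. With no flank, with stricter thresholds or with equal numbers of peaks Star did so, and Cyp17a1 no longer stood apart. Under the thresholds and equal numbers, WT replicate 4 lost a peak of 294 bp within Lsm1, ranked at 95.4%. Its covered length at Star then lay barely below that of S7KO replicate 2. Over the 36238 genes of any kind with a peak, every S7KO library lay above every WT library at 7.39% and below every WT library at 0.693%. The exact permutation p for Cyp17a1 was 0.1, the smallest the design allows, and 1.0 after Benjamini-Hochberg adjustment over all genes. Most of the difference came from a region past the 3′ end, 11.2 kb to 12.8 kb from the 5′ end, that was called in WT replicates 2 and 4 alone, at ranks of 97.7% and 99.1%. Without peaks of −log10 q under 5 the difference turned to 0.533 kb higher in S7KO.

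The peaks merged into 45 regions in the windows, of which 28 were called in all 6 libraries, or 62.2% against 57.1% of the 158725 regions of the genome. Of the 45, 39 were called in both genotypes, 2 in S7KO libraries alone and 4 in WT libraries alone. None had a complete split, with 3 of 3 libraries on 1 side and 0 of 3 on the other, a pattern that held for 0.416% of all regions in the S7KO direction and 0.0743% in the WT direction. Promoter regions were called in all 6 libraries in 9 of 13 cases, gene body regions in 7 of 12, upstream regions in 5 of 9 and downstream regions in 7 of 11. Both promoter counts include a region past the 3′ end of Insl3, within B3gnt3. Its peak came within 3 kb of the 5′ end of Insl3 in WT replicate 4 alone. The 5 regions called in a single library were those of Hsd3b1, 2 of Star and 2 of Insl3.

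Among the 28 regions called in all 6 libraries, the rank of 2 was nearer the top in every S7KO library than in every WT library, against 5.98% of the 90689 such regions, and that of 1 was farther from it, against 1.35%. These shares were near the background, and the regions were singled out after their values were seen. The region past the 3′ end of Hsd17b3 (chr13:64048168-64048803) ranked at 12.1%, 16.5% and 24.4% in S7KO and 29.1%, 30.2% and 27.8% in WT. Its fold enrichment was 7.58, 6.69 and 5.79 in S7KO and 5.51, 5.29 and 5.37 in WT, and 2.88% of all such regions were higher in every S7KO library in this way. Over the 28 regions fold enrichment was higher in every S7KO library at 2 and lower at 2, against 4.29% of all such regions lower. The lower ones were both near Insl3, and 1 was its best promoter peak, at 3.45, 3.49 and 3.31 in S7KO and 3.53, 4.12 and 3.55 in WT. At the region past the 3′ end of Hsd17b3 the S7KO values spread more than the WT values. There the shallowest S7KO library, replicate 1, had the strongest peak. The region past the 3′ end of Lhcgr, within Gtf2a1l, ranked at 46.1%, 44.2% and 33.7% in S7KO and 51.2%, 63.8% and 54.1% in WT. The region upstream of Insl3, at the promoter of Jak3, went the other way, at 74.5%, 69.1% and 87.1% in S7KO and 65.8%, 61.6% and 66.4% in WT. For each of the 3 the exact permutation p was 0.1, and 1.0 after adjustment over all 90689 regions.

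**Figure D4:**
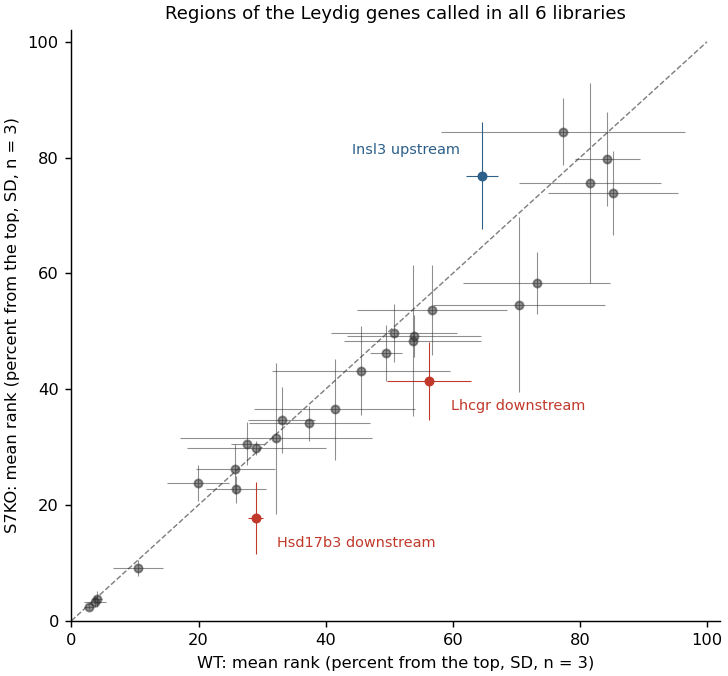
Mean rank (percent from the top of the list, so that strong peaks are at the lower left) in S7KO against WT for the 28 regions called in all 6 libraries, with bars of 1 SD over 3 libraries. Most lie along the dashed line of equal rank. The 2 red regions ranked nearer the top in every S7KO library, and the blue region in every WT library.

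The CpG content of a promoter moved with the presence of peaks across all genes. The measure was the number of CG dinucleotides over the number that its C and G content would give by chance, in the 250 bases before the start, for 17491 promoters. In the tertile with the lowest values 34.3% of genes had a promoter peak in all 6 libraries, in the middle tertile 86.7% and in the highest 97.2%. The median was 0.54. Of the 6 genes with a sequence, Lhcgr (0.51) and Insl3 (0.50) lay in the middle tertile, and Cyp11a1 (0.22), Hsd17b3 (0.15), Hsd3b6 (0.14) and Hsd3b1 (0.13) in the lowest, as the sequences printed above show for 4 of them. Within the lowest tertile the promoter peak of Cyp11a1 was among the strongest, since 7.49% of the 2002 genes there with a promoter peak in all 6 libraries had a better median rank. The value for Hsd17b3 was 97.5%.

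**Figure D5:**
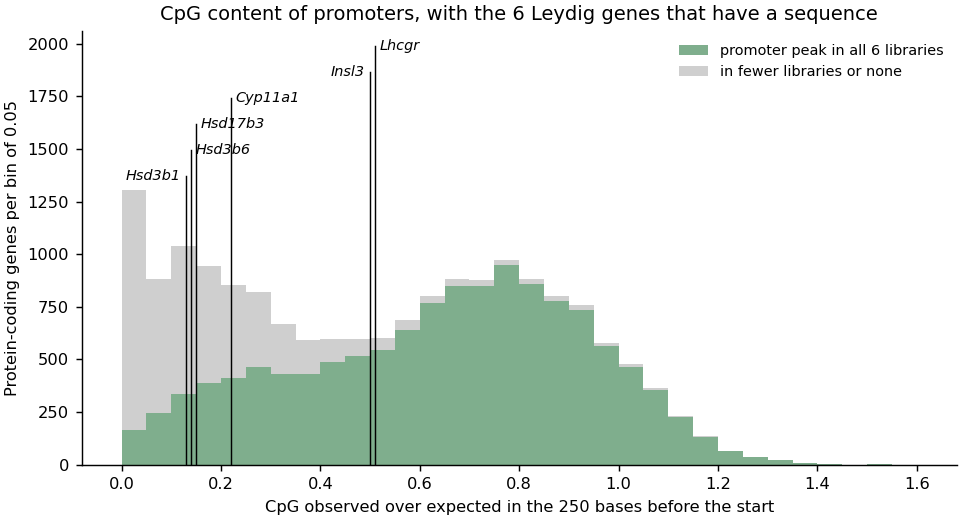
CpG observed over expected in the 250 bases before the start of 17491 protein-coding genes (bins of 0.05), stacked by whether a promoter peak was called in all 6 libraries (green) or not (grey). Vertical lines mark the 6 Leydig genes with a sequence: 4 lie between 0.13 and 0.22, where grey is large, and 2 at 0.50 and 0.51.

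Of 26 further genes of steroid synthesis and cholesterol supply, 20 had a promoter peak in all 6 libraries, and 6 had none in any: Hsd3b2, Hsd3b3, Cyp21a1, Cyp11b1, Cyp11b2 and Akr1c18. These shares were near the 74.0% and 21.8% over all protein-coding genes. Cyp21a1, Cyp11b1 and Cyp11b2 encode enzymes of adrenal corticoid synthesis. The median rank of the 20 was 4.14%, with the strongest at Hsd17b12 (0.0447%), Hsd17b7 (0.108%) and Srd5a1 (0.356%), enzymes that other tissues also use. All 20 regulators of the pathway had a promoter peak in all 6 libraries, with a median rank of 23.1% and the strongest at Crem (1.59%), Creb1 (2.08%) and Lhx9 (10.2%). A peak over the 5′ end itself was present in all 6 libraries at 14 of the 20 and at 18 of the 26, against 59.7% of protein-coding genes. For covered length 0 of the 26 and 3 of the 20 (Nr4a1, Pdgfra and Gli1, named after their values were seen) lay above WT in every S7KO library, and 0 of either lay below, beside the background of 7.39% and 0.693%.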

How the data were processed

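Peak lists of 6 ATAC-seq libraries were used, 3 S7KO and 3 WT, which the study calls biological replicates. Per the study's methods, the authors trimmed reads (Trim Galore 0.6.6), aligned them to mm10 with Bowtie2 2.4.4.1, kept uniquely mapped reads without duplicates or mitochondrial reads, shifted ends for the Tn5 cut, selected fragments by length and called broad peaks with MACS2 2.2.5. Which fragments entered the calls could not be settled. The deposited columns hold, per peak, a display score, a fold enrichment (a ratio), and 2 significance values as −log10, for p and for q. The largest q was 0.0983. Scores were not analysed, and p-values served for relative depth alone. Ranks, which depend on the other peaks of a list, do not measure accessibility between libraries.

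Gene spans came from RefSeq (GRCm38.p6). The strand came from the RefSeq promoter table (6 of the 9 genes) or from the GENCODE gene of the same symbol and chromosome (Star, Nr5a1 and Cyp17a1). Exons and introns were not separated. Peaks that overlapped or touched were merged into regions. Background coverage was solved from fold enrichment and p-value for peaks narrower than 300 bp and serves as relative depth. Libraries were compared by exact two-sided permutation tests with Benjamini-Hochberg adjustment over all genes or regions, in Python 3.11.15 with numpy 2.4.6 and pandas 2.3.3, tested on simulated data. The authors' count-based test (DiffBind) was not repeated. All 9 genes are described. Of the marker and pathway lists, genes without a promoter peak in any library are named, and of the 2 pathway lists also the 3 strongest. The genes, lists and tests were chosen with earlier results of these data known.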

Additional observations from a re-analysis of the deposited data

How the results depend on the processing

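The 7 genes with a promoter peak in all 6 libraries became 4 within 1 kb of the 5′ end, 4 over the 5′ end itself and 4 at −log10 q of at least 5. The shares of all protein-coding genes at these settings were 68.2%, 59.7% and 67.7%. At −log10 q of at least 2 and with equal numbers of peaks the count was 6, without Hsd17b3, beside 73.3% and 72.8%. Leaving out each library in turn gave 7 to 7. The count of genes with non-overlapping covered length was 1 (Cyp17a1, lower in S7KO), beside 8.08% of all genes in either direction. Cyp17a1 lost this call under every other window, threshold or measure tried, and all but the number of peaks called other genes, higher in S7KO. With no flank, at −log10 q of at least 2 or of at least 5, and with equal numbers of peaks the 1 gene was Star, and with flanks of 20 kb it was Nr5a1. With flanks of 5 kb the count was 2 (Star and Cyp11a1, both higher in S7KO). Except with no flank, these Star calls followed the loss of the weak WT replicate 4 peak within Lsm1, by a narrow margin. By number of peaks the count was 0, beside 1.43% of all genes. With each library left out it was 1 to 3, and Cyp17a1 stayed among the genes each time, beside 14.2% to 25.4% of all genes. Without WT replicate 4 it was 3, with Star and Cyp11a1 higher in S7KO and Cyp17a1 lower, beside 25.4%. The Cyp17a1 difference reversed from -0.664 kb to 0.533 kb at −log10 q of at least 5, where WT replicate 2 kept no peak in the window of that gene. With each library left out, regions called in every remaining library of 1 genotype and in no library of the other numbered 0 to 2 for S7KO and 0 to 1 for WT. The 2 were at Star and Nr5a1 without WT replicate 4, when 1.87% of all regions had this pattern, and the 1 was at Cyp17a1 without WT replicate 1, when 0.318% had it. Non-overlapping promoter ranks numbered 0 to 1, beside 10.9% to 20% of all genes. Among regions called in all 6 libraries, an added alternative chosen after seeing the data, the count of 3 was 2 by fold enrichment rank and 4 to 9 with each library left out, when the background rose to between 13.1% and 21.7%.

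Between same-numbered libraries the correlations of deviations in covered length were 0.101, -0.154 and 0.406. Between libraries of different number they ran from -0.525 to 0.428. The numbers of peaks were close for replicates 1 (119786 in S7KO and 118881 in WT) and 4 (133299 and 133663). They were not for replicates 2 (127985 and 105728). Whether same-numbered libraries shared a batch was not tested. With the replicate block, 2 genes had a covered length that moved 1 way in every pair (Cyp11a1 higher and Cyp17a1 lower in S7KO), beside 23.3% of all genes, and 3 had such a promoter rank, beside 21.9%. Fold sizes and depth per peak could not be assessed, since the lists hold no counts.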
